A study of Mus musculus with 6 samples.

Results

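The genes of oxidative phosphorylation were followed across both genomes of the cell in splenic follicular helper T (Tfh) cells labelled as lacking the ubiquitin ligases CBL and CBL-B and in control cells. The set was defined by name: protein-coding genes of the mitochondrial genome, and nuclear genes whose symbols begin with Nduf, Uqcr, Atp5 or Cox4 to Cox8, with Sdha to Sdhd, Cycs and Cyc1. It holds 107 of the 47729 genes listed, of which 94 are nuclear and 13 mitochondrial. By complex, the nuclear genes comprise 43 of complex I (7 core subunits, 29 accessory subunits and 7 assembly factors of the Ndufaf series), 4 of complex II, 9 of complex III, 20 of complex IV and 15 of complex V. Cytochrome c (Cycs) and the genes Atp5s and Atp5sl make up the rest. The mitochondrial genes encode 7 subunits of complex I, 1 of complex III, 3 of complex IV and 2 of complex V.

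The libraries are RNA-seq of mouse splenic Tfh cells, helpers of germinal centre B cells, sorted on CD4, TCR beta, high PD-1 and high CXCR5. Of the 6 libraries, 3 came from mice labelled Cbl-/-Cbl-b-/- (called double knockout here) and 3 from mice labelled wt ctrl (called control). Both groups had been given NP-OVA, a hapten coupled to the protein ovalbumin, by intraperitoneal injection. The sources used here give no age, sex, strain, time after injection or way in which the alleles were deleted. They do not say that each library came from its own mouse, so the p-values are measured against the spread between libraries, which may be technical.

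Oxidative phosphorylation passes electrons from NADH and succinate through complexes I and II, coenzyme Q, complex III and cytochrome c to complex IV, which reduces oxygen, and the proton gradient built on the way drives ATP synthesis by complex V. Complexes I, III, IV and V are assembled from subunits of both genomes, whereas complex II is entirely nuclear. The mitochondrial genome is transcribed on both strands as long precursors that are cut into single mRNAs, and activated T cells are known to enlarge their mitochondrial mass and respiration.

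Values are normalised read counts, scaled by the authors with 1 factor for each library. Differences are those of log2(value + 1) between double knockout and control, negative where the double knockout was lower, with the standard error from limma's linear model, and a gene passed at a Benjamini-Hochberg adjusted p below 0.05 over all 13602 genes tested. Libraries held 30528775, 38368885 and 36022153 reads in genes in double knockout 1 to 3 and 31041479, 23392254 and 35075509 in control 1 to 3. Cbl fell from 12417, 12945 and 8615 in the controls to 3262, 3856 and 2221 in the double knockouts (log2 difference −1.88 ± 0.23, adjusted p = 0.00888), whereas Cblb was 7459, 7881 and 8054 in the double knockouts and 8943, 10037 and 6955 in the controls (−0.13 ± 0.14, adjusted p = 0.703). The counts thus show lower Cbl in the libraries labelled as double knockout, and the loss of Cblb rests on the labels alone. The 6 T and Tfh markers summed to between 187215 and 214442 in the double knockouts and between 206569 and 213639 in the controls, and none of them passed by limma or edgeR, while DESeq2 called Cd3e higher and Cd4 lower. Summed markers of NK and CD8 T cells were 483 to 1318 against 2733 to 3161, and those of erythroid cells 10.7 to 101 against 268 to 582, lower in every double knockout library. Of the 5 erythroid markers 1 fell and of the 2 NK and CD8 markers tested both fell, whereas no B cell or myeloid marker passed by limma. Summed B cell markers were 843 to 1834 against 984 to 1525 and summed myeloid markers 54.6 to 102 against 97.3 to 193. The median log2 difference was −1.16 over the 4 B cell markers tested, 3 of them negative, and −0.83 over the 3 myeloid markers tested. The 10 proliferation markers summed to 57890, 35423 and 93950 in the double knockouts and to 42829, 48421 and 53105 in the controls, with none passing. The female transcript Xist was 18101, 17308 and 12769 in the double knockouts against 53.3, 970 and 12.9 in the controls, and 4 Y-linked genes summed to at most 10.7 against 7260 to 9514, so sex and genotype cannot be told apart in any comparison below. In bulk libraries, fewer cells of a type and less RNA per cell cannot be told apart either.

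Almost no oxidative phosphorylation gene differed between the genotypes beyond the spread between libraries. Of the 107 genes, 94 had values of at least 10 in at least 3 libraries and were tested, 86 nuclear and 8 mitochondrial. None rose, 93 did not pass, and 1, mt-Nd3, was called lower, against 2.93% of all genes tested that passed in either direction (1.85% higher and 1.07% lower in the double knockout). Only the same gene passed with edgeR, which called 2.98% of all genes, with DESeq2, which called 8.06%, and in the authors' deposited table, which called 6.61%. mt-Nd3 reached the values needed for a test in the controls alone, and its near-identical copy on chromosome 1 was called higher. With gene and copy summed no gene of the set passed, as described with the mitochondrial genes. At an unadjusted p below 0.05 stood 4 of the 94, mt-Nd3, mt-Nd6, Ndufa4 and mt-Nd4, against 17.0% of all genes. The groups did not overlap for 1 gene that was higher in all double knockouts and for 4 that were lower, 5.32% of the 94, against 23.6% of all genes. The median difference over the 94 genes was −0.11 and 80 of them were negative, where the median over all genes was −0.00114 and 50.1% were negative.

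Among the nuclear genes 0 of 86 passed in either direction by limma, and the smallest adjusted p was 0.249. Only Ndufa4 had an unadjusted p below 0.05. Their differences ran from −0.32 to 0.32 with a median standard error of 0.15. The 95% interval lay within a log2 difference of 1 in either direction for all 86, and within 1.5-fold for 73 of them. These intervals bound the difference between the groups, in which genotype and sex are not separated, against the spread between libraries.

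**Figure D1:**
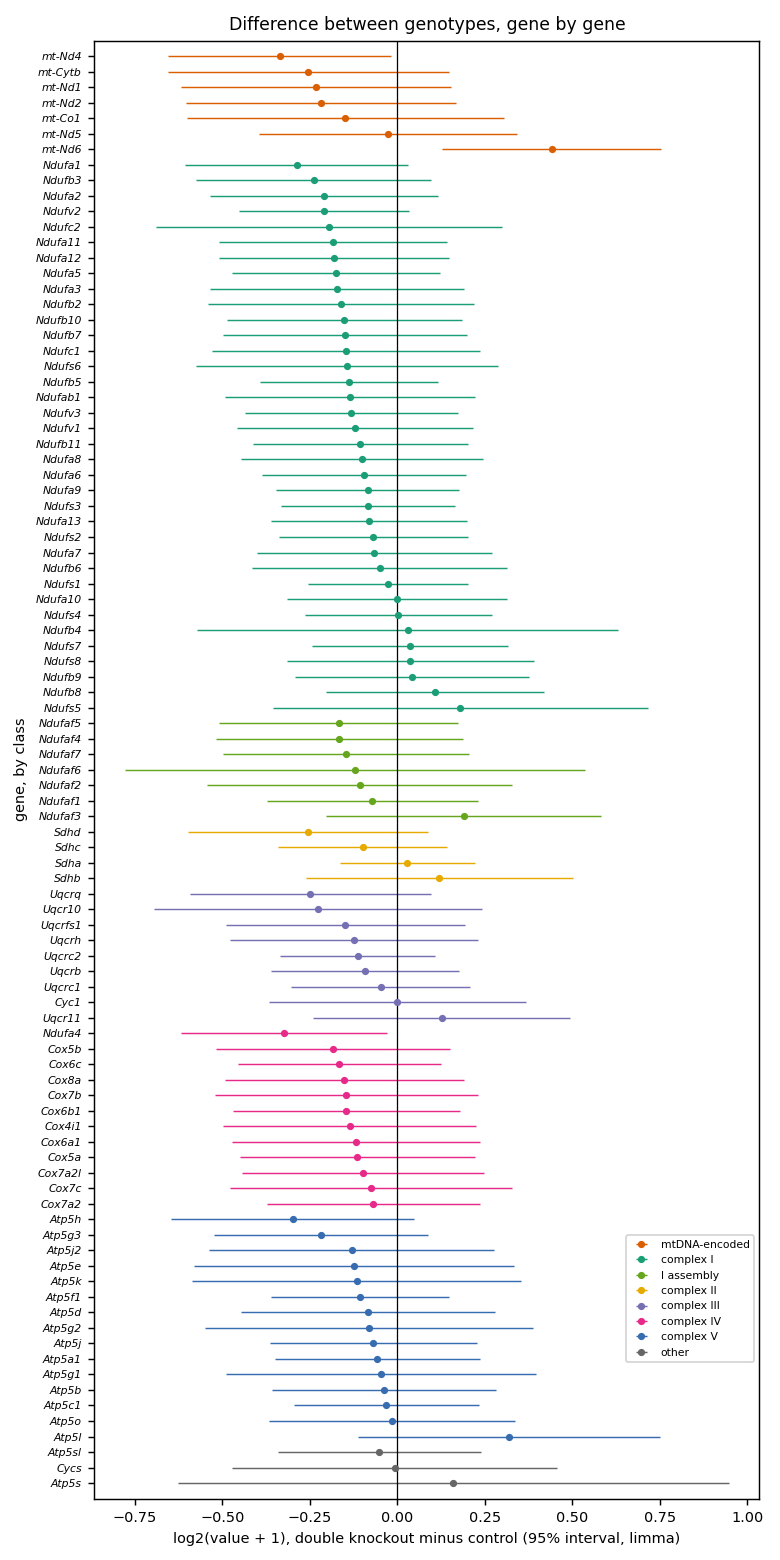
Each point is the difference of one gene in log2(value + 1), negative where the double knockout was lower, with its 95% interval from limma (3 libraries per group), and colours mark the complex. mt-Nd3, at −5.47, lies outside the axis and is not drawn. Most points lie a little left of 0 with intervals that cross it.

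The catalytic core of complex I, the NADH dehydrogenase, had 7 nuclear genes with a median difference of −0.07. Ndufs1, its largest iron-sulfur subunit, was 2305, 2487 and 2463 in the double knockouts and 2314, 2696 and 2392 in the controls (−0.03 ± 0.10, adjusted p = 0.935). The groups overlapped. Ndufv2, another iron-sulfur subunit and the lowest difference of the core, was 3014, 2811 and 3479 against 3440, 3598 and 3676 (−0.21 ± 0.11, adjusted p = 0.372), with double knockout 3 above control 1. The 29 accessory subunits, which surround and stabilise the core, had a median of −0.14, with 24 negative. Ndufa1, a small membrane-arm subunit encoded on the X chromosome, was 1558, 1327 and 1604 against 1854, 1556 and 2094 (−0.29 ± 0.14, adjusted p = 0.345). Double knockouts 1 and 3 lay above control 2 for this gene. Ndufs5 had the highest difference among them, with 308, 272 and 337 against 289, 195 and 345 (0.18 ± 0.23, adjusted p = 0.774), and its sign turned to −0.05 without control 2. The 7 assembly factors, which build complex I and leave it, had a median of −0.12. Ndufaf5, a modifier of a core subunit, was 338 ± 35.5 against 378 ± 6.61 (SD, n = 3), lower in all double knockouts at an adjusted p of 0.641. Ndufaf3 lay on the other side, at 662, 548 and 626 against 457, 504 and 663 (0.19 ± 0.17, adjusted p = 0.650).

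Complex II, succinate dehydrogenase, also works in the citric acid cycle. Its flavoprotein Sdha was the steadiest of the nuclear genes by standard error, with 8778, 9099 and 8988 in the double knockouts and 8540, 9003 and 8798 in the controls (0.03 ± 0.08, adjusted p = 0.913). The groups overlapped within a narrow range. The iron-sulfur subunit Sdhb was 2886 ± 272 against 2694 ± 640. The membrane anchor Sdhd was 1830, 1465 and 1925 against 2080, 1775 and 2376 (−0.25 ± 0.15, adjusted p = 0.442). Double knockouts 1 and 3 lay above control 2, so the anchor and the flavoprotein of one complex had differences of opposite sign, neither of which passed.

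Complex III, which oxidises coenzyme Q, had a median of −0.11 with 8 of 9 genes negative. Its Rieske iron-sulfur protein Uqcrfs1 was 2162 ± 321 against 2397 ± 357. Cyc1, the cytochrome that hands electrons on, was 1768, 1555 and 2144 against 1629, 1668 and 2172 (−0.00 ± 0.16, adjusted p = 0.999), and the groups covered nearly the same range. Cycs, cytochrome c itself and also a trigger of apoptosis when released, was 1024, 979 and 1513 against 998, 1083 and 1425 (−0.01 ± 0.20, adjusted p = 0.993). Double knockout 3 and control 3 were the high libraries.

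Complex IV, cytochrome c oxidase, was the only complex in which all tested nuclear genes, 12 of 12, had negative differences, with a median of −0.14. These genes moved together between libraries. Their median deviation from the gene means was 0.35 in control 3 and −0.25 in double knockout 2. In the other libraries it lay between −0.13 and 0.04. Ndufa4, first assigned to complex I and now known as a complex IV subunit, had the lowest difference of all nuclear genes. It was 2292, 2213 and 2633 in the double knockouts and 2844, 2659 and 3465 in the controls (−0.32 ± 0.13, adjusted p = 0.249), and every control lay above every double knockout. Under 18 alternative settings its difference ranged from −0.40 to −0.21 and its adjusted p from 0.0917 to 0.520. Cox4i1, the nuclear subunit that binds ATP, was 6977, 5726 and 6921 against 6634, 6153 and 8991 (−0.14 ± 0.16, adjusted p = 0.739). Only control 3 stood above the double knockouts.

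In complex V, the ATP synthase, 14 of 15 nuclear genes were negative with a median of −0.08. The catalytic beta subunit Atp5b was 22045, 20374 and 27066 against 22035, 22520 and 26503, and the alpha subunit Atp5a1 was 22406, 20268 and 25685 against 22272, 22461 and 26257. Both differed by less than the spread between libraries (−0.04 ± 0.14 and −0.06 ± 0.13). Atp5h, a subunit of the peripheral stalk, was 3720, 3346 and 3877 against 4386, 3698 and 5541 (−0.30 ± 0.15, adjusted p = 0.371), with control 3 far above the other libraries. Atp5l, a membrane subunit at the dimer interface, had the highest difference of any nuclear gene, with 431, 354 and 366 against 282, 266 and 382 (0.32 ± 0.19, adjusted p = 0.444). Control 3 lay within the range of the double knockouts. Atp5s, a coupling factor with few reads, was 81.0, 116 and 52.8 against 81.0, 56.2 and 78.1 (0.16 ± 0.34, adjusted p = 0.874), and its sign turned to −0.11 without double knockout 2 and to −0.00438 without control 2.

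The small negative median of the nuclear genes rested on 2 libraries. Across its nuclear genes each library deviated from the gene means by a median of −0.02, −0.22 and 0.07 in double knockout 1 to 3 and of −0.02, −0.11 and 0.29 in control 1 to 3. Control 3 was the highest of the 6 libraries for 72 of the 86 genes, and double knockout 2 the lowest for 60. Without control 3 the nuclear median moved from −0.11 to −0.000747, with 43 of 86 genes negative. Without double knockout 2 it was −0.03 with 51 negative, and with library weights −0.04 with 56 negative. Leaving out any other library gave medians between −0.18 and −0.12.

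**Figure D2:**
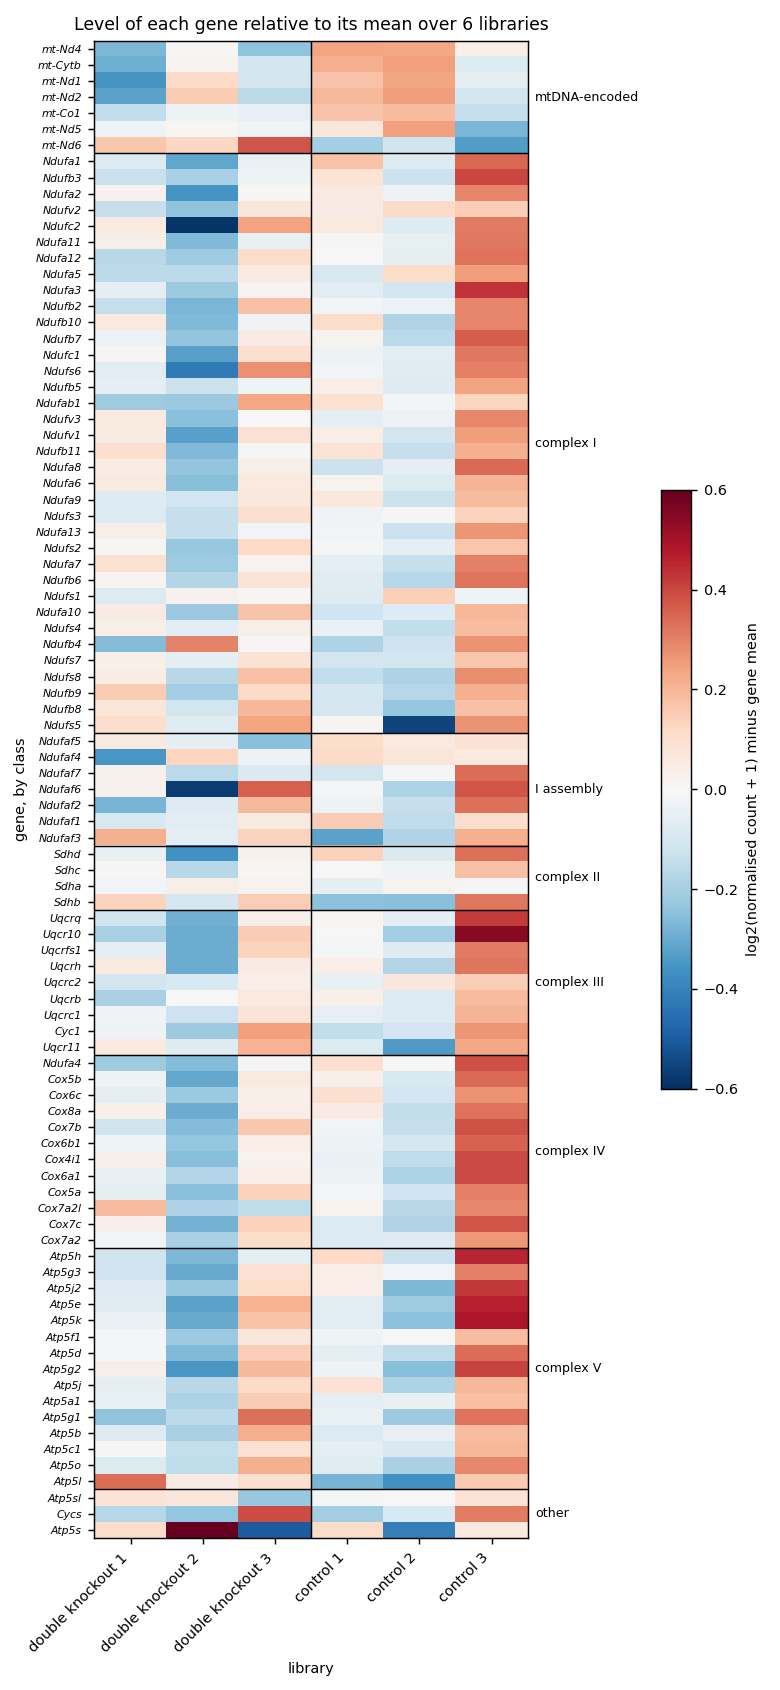
Colours show log2(normalised count + 1) of each tested gene minus its mean over the 6 libraries (columns), with genes ordered by class and then by difference (rows). mt-Nd3 is not drawn. The nuclear rows are mostly red in control 3 and blue in double knockout 2, whereas the mitochondrial rows other than mt-Nd6 are red in controls 1 and 2 and mostly blue in double knockouts 1 and 3.

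The coordinated shift was larger for the nuclear genes than for genes in general. Control 3 exceeded the mean of the other controls for 84 of the 86 nuclear genes, by a median log2 of 0.34, while over all genes it did so for 50.9% and the median was 0.01. Double knockout 2 lay below the other double knockouts for 78 of 86, by a median of −0.24, against 0.01 over all genes. Gene length moved with these libraries. The nuclear genes had a median exon length of 1808 bases against 3994 over all genes tested, and among the shortest 20% of genes, up to 1891 bases, control 3 lay above the other controls for 67.7%, with a median of 0.22. The same short genes lay below in double knockout 2 with a median of −0.09. Nor were the shifts particular to the nuclear genes of this set. Summed mitochondrial ribosomal protein genes were also lowest in double knockout 2 (66831) and highest in control 3 (88548). So were those of the citric acid cycle and pyruvate dehydrogenase (63925 and 73097). Regulators of respiratory genes were lowest in double knockout 1 (15591) and highest in double knockout 3 (18932). The part of length, RNA quality or the other cell types in these shifts was not tested. Of the 2 regulatory T cell markers, Foxp3 was highest in double knockout 2, at 5451 against 150 and 295 in the other double knockouts and 286, 768 and 478 in the controls. The other, Ikzf2, was 7951, 11115 and 12291 in the double knockouts and 17427, 16302 and 12353 in the controls, so double knockout 2 lay below every control, and the sum of both ran from 8101 to 16566 against 12831 to 17713. Double knockout 2 had the lowest Mki67, a proliferation gene, at 7630 against 16174 and 26640 in the other double knockouts and 8397, 10016 and 9291 in the controls.

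Summed over the set, nuclear genes took 0.783%, 0.691% and 0.827% of reads in the double knockouts and 0.772%, 0.731% and 0.928% in the controls (0.767% ± 0.0694 against 0.811% ± 0.104, SD, n = 3). Mitochondrial protein-coding genes took 2.42%, 2.80% and 2.54% against 3.10%, 3.16% and 2.499% (2.59% ± 0.196 against 2.92% ± 0.366). In both sums the groups overlapped. The mitochondrial sum is in effect that of 7 genes, since mt-Co2, mt-Co3, mt-Atp6, mt-Atp8, mt-Nd4l and mt-Nd3 added almost no counts, so neither it nor its ratio to the nuclear sum is a measure of all 13. The ratio of mitochondrial to nuclear reads was 3.08, 4.05 and 3.08 in the double knockouts and 4.01, 4.33 and 2.69 in the controls. On the log2 scale, nuclear over mitochondrial, the groups differed by 0.09 (−1.76 ± 0.229 against −1.85 ± 0.368), less than either SD, and leaving out single libraries moved the value between −0.04 and 0.30. The libraries with the lowest nuclear sums in each group, double knockout 2 and control 2, had the highest mitochondrial sums.

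**Figure D3:**
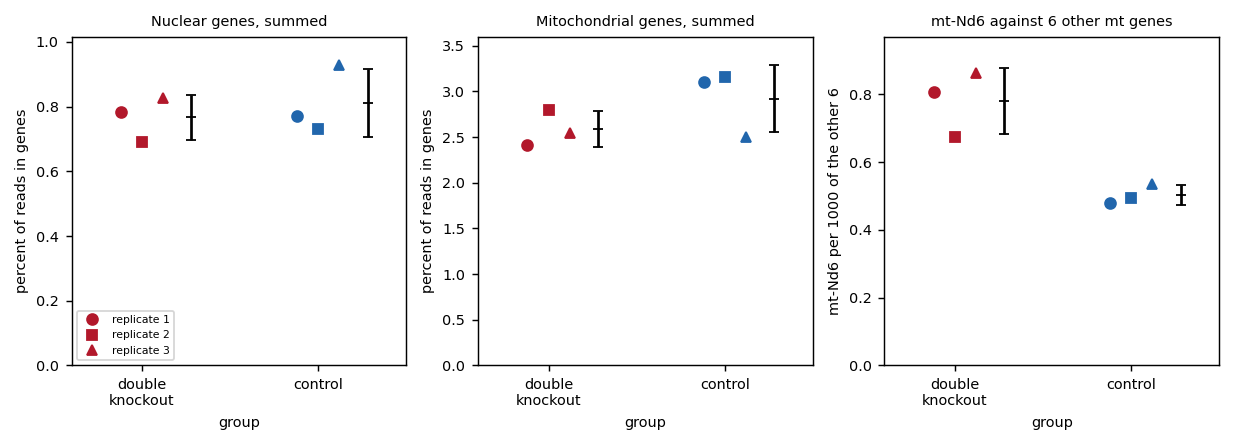
Points are single libraries (shape gives the replicate), bars the mean and SD of 3 libraries. The left and middle panels show the percent of reads in nuclear and in mitochondrial oxidative phosphorylation genes, with overlapping groups, and the right panel mt-Nd6 per 1000 reads of 6 other mitochondrial genes, between 0.674 and 0.863 in the double knockouts and between 0.480 and 0.535 in the controls.

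Levels per length spanned a wide range within each complex. Length here counts all annotated exons of a gene. It was 419 bases for Ndufa1 and 619 for Cox8a, but 6883 for Ndufab1 and 8086 for Ndufs1. The order of genes and classes below thus depends on annotated length as well as on reads. In normalised counts per kilobase of exon, averaged over the 6 libraries, the nuclear subunits of complex I had a median of 962, from Ndufb4 at 47.4 to Ndufa1 at 3975. Complex II had a median of 1398, complex III of 1833, complex V of 2094 and the 12 tested genes of complex IV of 2632. The highest levels per kilobase were those of Cox8a at 10113 in complex IV, Atp5a1 at 7408 in complex V, Uqcrh at 5400 in complex III and Sdha at 2149 in complex II. The assembly factors of complex I had a median of 172, from Ndufaf6 at 129 to Ndufaf1 at 468, below the median of its subunits, and the ranges overlapped (Ndufab1 at 95.4, Ndufb2 at 111 and Ndufs1 at 302 among the low subunits). Cycs was at 344. Atp5l, with 6443 bases annotated as exon, was at 53.8.

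**Figure D4:**
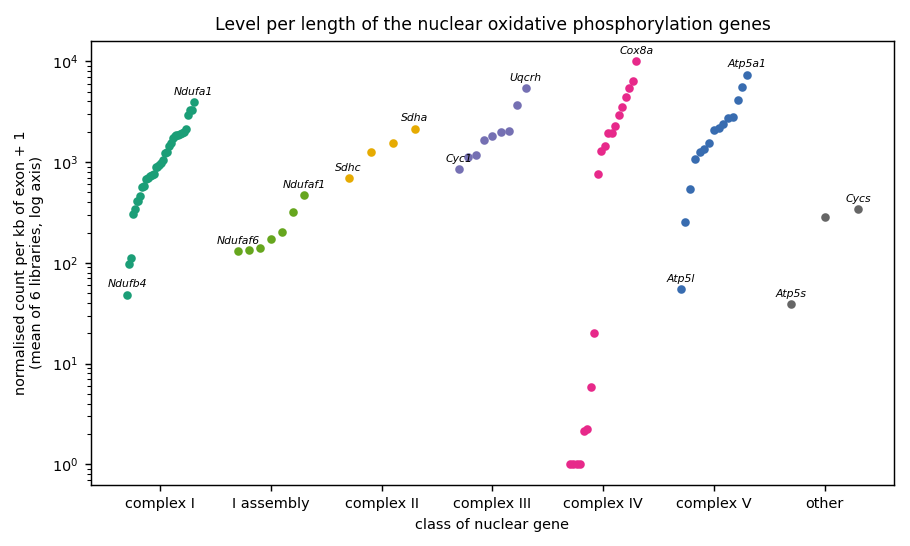
Each point is one nuclear gene, placed by complex, with its normalised count per kilobase of exon plus 1 on a log axis (mean of 6 libraries), and the lowest and highest of most classes are named. The 8 low points of complex IV are the isoforms Cox4i2, Cox6a2, Cox6b2, Cox7a1, Cox7b2, Cox8b, Cox8c and Ndufa4l2.

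Several complex IV subunits have a widely expressed gene and others known from muscle, lung or testis. For COX4, COX6A, COX6B, COX7B and COX8 the widely expressed form held nearly all reads in these cells. Over the 6 libraries Cox4i1 had 42278 reads and Cox4i2, known from lung, had 6. Cox6a1 had 23579 and its heart and muscle form Cox6a2 had 4. Cox6b1 had 27945 and the testis form Cox6b2 had 34. Cox7b2, Cox8b, Cox8c and Ndufa4l2 had 0 reads in all 6 libraries, which allows up to 3 reads per library, beside 22048 reads of Cox7b, 38288 of Cox8a and 16365 of Ndufa4. Cox7a1, the heart and muscle form of COX7A, had 63 reads beside 13319 of Cox7a2 and 31611 of the related Cox7a2l, which gave 55.7% to 63.5% of the family's level per kilobase in the double knockouts and 58.6% to 61.5% in the controls. Cox7a1 was 7.17, 7.37 and 5.37 in the double knockouts and 20.5, 5.48 and 15.6 in the controls, with overlap and too few reads to be tested.

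The c subunit of the ATP synthase, the rotor ring, is made as the same mature protein by 3 genes. Per kilobase, Atp5g3 gave 71.4% to 73.2% of their summed level in the double knockouts and 72.4% to 76.4% in the controls. Atp5g2 gave 17.5% to 19.9% against 16.0% to 19.1%, and Atp5g1 7.64% to 9.69% against 7.65% to 8.46%. By reads the order of Atp5g1 and Atp5g2 was the reverse, with 7679 and 5591 over all libraries. Their annotated exons span 4912 and 1675 bases, so the order of these genes rests on the length used. All 3 shares overlapped between the groups. Atp5g2 shares 34.7% of its 100-base windows with other annotated transcripts, the pseudogene Gm10175 among them, so its share is uncertain. Windows were shared by more than 20% also for Ndufaf2 (62.4%, with a long noncoding RNA), Atp5o, Ndufa13, Ndufb6 and Cycs.

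Promoters of nuclear respiratory genes are known for sites of NRF1, of ETS family factors such as GABP, and of YY1. Since these genes moved together between libraries, RefSeq windows of 300 bases (250 before and 50 after the start, GRCm38.p6) were searched on both strands for the letters GCGCA, any base and then GCGC (NRF1), CCGGAAG (ETS) and AAGATGGCG (YY1), with no overlap between them required or removed. Of the 94 nuclear genes 77 had a window. NRF1 letters were found for 19 of the 77 genes (24.7%) against 5.19% of 27025 genes with a window, ETS letters for 17 (22.1%) against 9.93%, and YY1 letters for 8 (10.4%) against 1.64%. The letters were not particular to this set. Of 69 mitochondrial ribosomal protein genes, 18.8% held NRF1, 37.7% ETS and 11.6% YY1 letters. The sets were not matched for CpG content, and a part of the letters in the shifts between libraries was not tested. The median difference between genotypes was −0.12 for the 19 tested genes with NRF1 letters and −0.11 for the 54 without, −0.12 against −0.11 for ETS and −0.08 against −0.11 for YY1. The 150 bases before the start are shown for the gene with the most NRF1 matches in that stretch, Sdha, and for the 2 genes among the 4 lowest nuclear differences that hold both NRF1 and ETS letters, with the matches in capitals.
Sdha, chr13:74350241-74350390, minus strand: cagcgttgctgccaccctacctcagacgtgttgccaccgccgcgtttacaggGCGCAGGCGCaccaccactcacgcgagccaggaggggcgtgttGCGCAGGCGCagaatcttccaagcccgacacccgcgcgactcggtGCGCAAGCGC
Atp5h, chr11:115419920-115420069, minus strand: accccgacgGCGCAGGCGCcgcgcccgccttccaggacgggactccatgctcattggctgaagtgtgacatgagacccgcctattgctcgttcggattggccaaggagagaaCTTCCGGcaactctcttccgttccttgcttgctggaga
Sdhd, chr9:50603850-50603999, minus strand: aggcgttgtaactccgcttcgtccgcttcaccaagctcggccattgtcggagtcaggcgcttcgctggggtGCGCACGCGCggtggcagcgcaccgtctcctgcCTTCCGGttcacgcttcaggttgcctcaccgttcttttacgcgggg
Sdha holds 3 NRF1 matches there, and Atp5h and Sdhd hold 1 NRF1 and 1 ETS match each, the latter on the reverse strand (CTTCCGG).

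Other nuclear genes that build and run the respiratory chain were tested in 13 lists with 211 genes. By limma 0 rose and 0 fell, against 2.93% of all genes that passed, and 8 had an unadjusted p below 0.05, against 17.0% of all genes. No gene of the lists was called by edgeR either, which called 2.98% of all genes. DESeq2 and the authors' deposited table each called Myc higher and Mrrf lower, and with library weights Idh2 rose while Mrrf and Cox20 fell. List medians ran from −0.13 to 0.07 and 11 of 13 were negative. Of the 8 further complex I assembly genes none passed, and Tmem126a, an assembly factor of its membrane arm, had the smallest p (1022, 988 and 1016 against 1221, 1136 and 1297, −0.27 ± 0.10, adjusted p = 0.237). Among 19 assembly factors of complex IV, Cox20, a chaperone of the COX2 subunit, was 905, 969 and 919 against 1200, 1091 and 1232 (−0.33 ± 0.11, adjusted p = 0.152). For both genes every double knockout lay below every control, as for 11.3% of all genes. Sdhaf1, an assembly factor of complex II, differed by −0.37 ± 0.14 (adjusted p = 0.225), Ttc19 of complex III by −0.25 ± 0.20 (0.606) and Tmem70 of complex V by 0.14 ± 0.14 (0.681).

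In the machinery that expresses the mitochondrial genome no gene passed by limma. Among 15 genes of its replication and transcription, Mgme1, a mitochondrial exonuclease, differed by −0.36 ± 0.18 (adjusted p = 0.348), and among 17 genes of RNA processing Ptcd2 by −0.25 ± 0.10 (0.266). Mrrf, which recycles mitochondrial ribosomes, came nearest to the threshold of all these genes, at 568, 608 and 693 in the double knockouts and 1003, 828 and 850 in the controls (−0.52 ± 0.14, adjusted p = 0.0913), with no overlap. The 76 mitochondrial ribosomal protein genes tested had a median of −0.09 with 54 negative, and Mrpl18 had the smallest p (−0.28 ± 0.13, adjusted p = 0.317). Among 8 regulators of respiratory genes, Myc was 958, 1249 and 2443 against 530, 758 and 883 (1.01 ± 0.34, adjusted p = 0.169), higher in every double knockout.

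The mitochondrial genes fell into 3 kinds by their counts. The abundant ones were mt-Nd1, mt-Nd2, mt-Co1, mt-Nd4, mt-Nd5 and mt-Cytb, all with at least 46028 normalised counts in every library. mt-Nd6, the only one encoded on the light strand, had between 431 and 707. mt-Co2, mt-Co3, mt-Atp6, mt-Atp8 and mt-Nd4l had at most 7.18 in any library and were not tested, and mt-Nd3 was low with a difference between groups. Per kilobase, mt-Co1 was highest at 253616, followed by mt-Cytb at 155017, mt-Nd1 at 99444, mt-Nd2 at 55914, mt-Nd4 at 53087, mt-Nd5 at 44297 and mt-Nd6 at 1064. mt-Co1 was thus far above the highest nuclear level, that of Cox8a.

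The low genes lie together, at chrM:7013-10173. All of them except mt-Atp8 have an annotated copy on chromosome 1 (chr1:24611535-24616197, minus strand), where 7 unprocessed pseudogenes are listed. That range is longer, since it also holds copies of bases 1054 to 1545 of mt-Co1 and of bases 1 to 876 of mt-Nd4. The copies of mt-Co2, mt-Atp6, mt-Co3 and mt-Nd4l are identical to the mitochondrial genes over the 681, 678, 783 and 294 bases aligned. Of the 100-base windows of each gene, 99.5% for mt-Co2 and mt-Atp6, 99.9% for mt-Co3, 98.5% for mt-Nd4l and 97.6% for mt-Nd3 occur in a pseudogene transcript. The share was 60.8% for mt-Nd4, 30.8% for mt-Co1, 3.19% for mt-Nd2 and 0 for mt-Nd1, mt-Nd5, mt-Nd6 and mt-Cytb, all of which reached the values needed for a test. mt-Atp8 shares none with an annotated transcript. The pseudogenes had at most 13.9 normalised counts in any library, except Gm28438, so the low counts of these genes were not made up by counts at their copies. The sources used here do not give how reads that match several places were counted, and levels of mt-Co1 and mt-Nd4 are uncertain for the same reason: per kilobase of unshared windows they would be 366728 and 135255.

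mt-Nd3, a core subunit of complex I, was 0, 0 and 0.895 in the double knockouts and 84.1, 30.2 and 61.5 in the controls (−5.47 ± 0.60, adjusted p = 0.00686), from 0, 0 and 1 reads against 82, 22 and 67. The 171 control reads against 1 make a depth-adjusted ratio of 203, with an exact conditional 95% interval of 35.9 to 8058 that covers counting error only. The gene was tested only through its controls, since no double knockout reached a value of 10. Gm28438, the copy of mt-Nd3, did the reverse, at 75.8, 91.0 and 64.4 against 0, 15.1 and 0 (4.94 ± 1.02, adjusted p = 0.0457). Its 257 and 11 reads make a ratio of 19.7 in the opposite direction (10.8 to 40.0).

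Counted together, mt-Nd3 and Gm28438 did not separate the genotypes. Their sum was 75.8, 91.0 and 65.3 in the double knockouts and 84.1, 45.2 and 61.5 in the controls (77.4 ± 12.9 against 63.6 ± 19.5, SD, n = 3), with overlap. With the chromosome 1 copies summed into their mitochondrial genes, an alternative chosen after the data were seen, mt-Nd3 differed by 0.31 (adjusted p = 0.688). What differed was the place. The copy held 100%, 100% and 98.6% of the summed reads in the double knockouts (exact Clopper-Pearson 95% intervals 95.1% to 100%, 96.7% to 100% and 92.6% to 99.97%), and 0%, 33.3% and 0% in the controls (0% to 4.40%, 18.0% to 51.8% and 0% to 5.36%). Control 2, the one control with reads at the copy, was also the control with the highest Xist, at 970. Its summed Y-linked genes, at 9010, lay between those of control 3 (7260) and control 1 (9514). Whether Xist and the reads at the copy are linked was not tested.

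The reference sequences of gene and copy differ at 1 of 345 aligned bases, T3C, with positions counted from 1 at the first base of mt-Nd3 (chrM position 9461). Their first 40 bases are shown because that base, in capitals, is the only one that tells them apart in GRCm38.
mt-Nd3, chrM:9459-9498, plus strand: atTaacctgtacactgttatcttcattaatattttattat
Gm28438, chr1:24613080-24613119, minus strand: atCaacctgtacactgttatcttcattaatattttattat
Which base the reads of either group carried there was not tested, since the files hold counts and no reads. With the files as they are, mt-Nd3 gives no level of its own. The sum holds only reads counted at either place, and 97.6% of the gene's windows occur in the copy. How reads that match several places were counted is not given. The genes mt-Co2, mt-Atp6, mt-Co3 and mt-Nd4l, whose aligned copies are identical, had at most 7.18 normalised counts, and those copies at most 13.9. Whether the sum, or its overlap between the groups, reflects the level of the pair was not tested.

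None of the 6 abundant mitochondrial genes passed, and all 6 differences were negative. mt-Co1, the catalytic subunit of complex IV, was 352551, 382370 and 377196 against 439776, 445063 and 354062 (−0.15 ± 0.20, adjusted p = 0.779). Controls 1 and 2 stood above all double knockouts and control 3 lay among them. mt-Cytb, of complex III, was 143705, 178081 and 162958 against 204748, 208569 and 165975 (−0.26 ± 0.17, adjusted p = 0.521), with the same order of the controls. The complex I subunit mt-Nd1 was 73847, 101993 and 87288 against 106138, 111205 and 90538 (−0.23 ± 0.17, adjusted p = 0.549). mt-Nd2 had 46028, 63911 and 51292 against 65666, 68351 and 52987 (−0.22 ± 0.17, adjusted p = 0.579). For both, double knockout 2 reached above control 3. mt-Nd4 was 60100, 72712 and 61367 against 85276, 85006 and 74459 (−0.34 ± 0.14, adjusted p = 0.268), the only one of the 6 with every double knockout below every control. It passed with library weights (−0.42, adjusted p = 0.0445), a setting that called 1368 of all 13602 genes, against 398 without weights. The adjusted p of mt-Nd4 ranged from 0.0445 to 0.596 over 18 alternatives. mt-Nd5 was 78939, 80957 and 78927 against 84163, 95341 and 66461 (−0.03 ± 0.16, adjusted p = 0.963), with its controls spread wider than the double knockouts.

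mt-Nd6 went the other way. It was 609, 593 and 707 in the double knockouts and 473, 500 and 431 in the controls (636 ± 61.6 against 468 ± 35.0, SD, n = 3; 0.44 ± 0.14, adjusted p = 0.142), every double knockout above every control, as for 12.3% of all genes. It did not pass here or under any of 18 alternatives (differences 0.36 to 0.49, adjusted p 0.0662 to 0.332). Set against the 6 abundant genes, which are read from the opposite strand, mt-Nd6 had 0.806, 0.674 and 0.863 counts per 1000 of theirs in the double knockouts and 0.480, 0.494 and 0.535 in the controls. The means were 0.781 ± 0.0970 and 0.503 ± 0.0290 (SD, n = 3), a ratio of 1.55 with no overlap. This ratio was chosen after the values were seen, and no test is given for it. The sources used here do not give the strand setting of the counting, so reads of the opposite strand at mt-Nd6 cannot be told apart from its own.

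**Figure D5:**
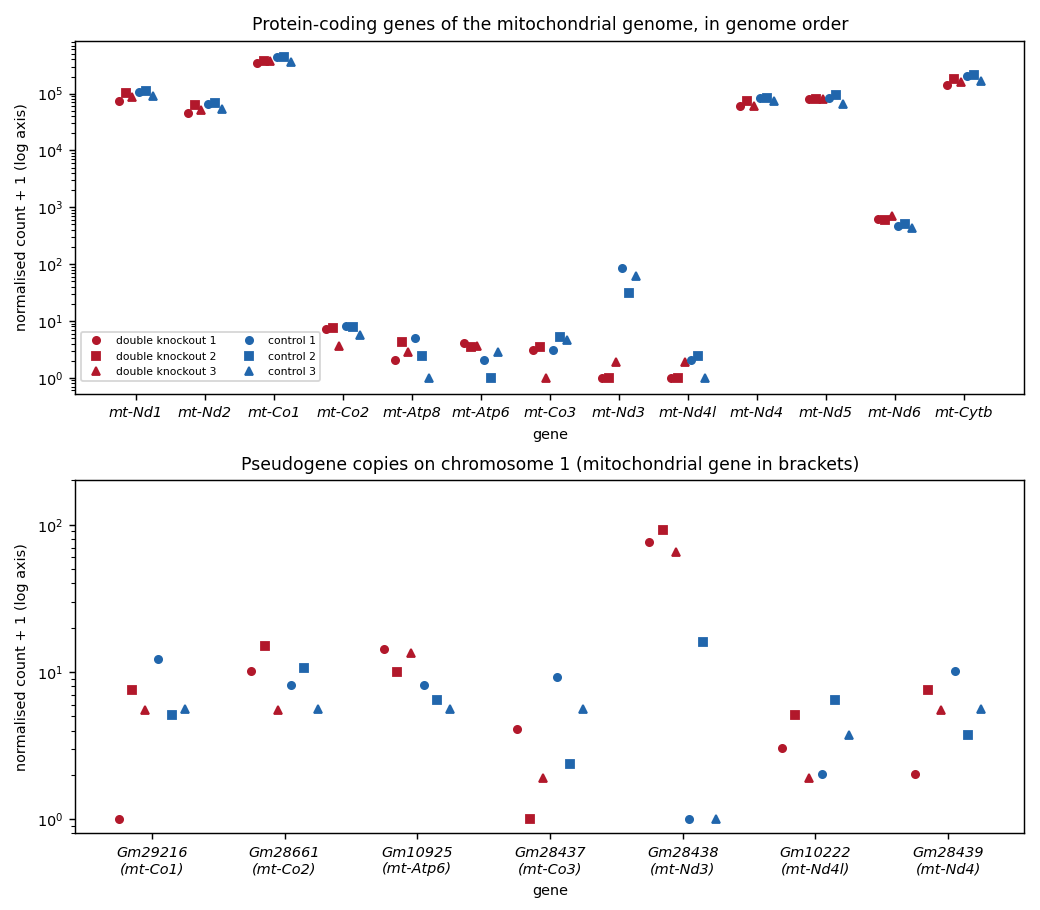
Points show normalised counts plus 1 of single libraries on a log axis, above for the 13 mitochondrial protein-coding genes in genome order and below for the 7 chromosome 1 pseudogenes, with the mitochondrial gene in brackets. mt-Nd3 is high in the controls and Gm28438 in the double knockouts. The other mitochondrial genes at chrM:7013-10173 have at most 7.18 normalised counts, and the other pseudogenes at most 13.9.

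Apart from mt-Nd3, 7 mitochondrial genes were tested and 0 passed by limma. An unadjusted p below 0.05 was found for 2 of them (mt-Nd4 and mt-Nd6), against 17.0% of all genes. The median difference of the 7 genes was −0.22, and their 95% intervals all lay within a log2 difference of 1 in either direction. With mt-Nd3 the median of 8 was −0.23, and with the chromosome 1 copies summed it was −0.09. The nuclear median was −0.11. Both genomes had small negative medians, with different libraries high and low. The 6 abundant mitochondrial genes deviated from the gene means by a median of −0.28, 0.01 and −0.11 in double knockout 1 to 3 and of 0.18, 0.24 and −0.10 in control 1 to 3, so double knockout 1 was lowest and control 2 highest. The mitochondrial median of 8 moved to −0.11 without double knockout 1. Without control 2, where mt-Nd3 was not tested, the median of the other 7 was −0.15. The ribosomal RNA of the small mitochondrial subunit, mt-Rnr1, was 17690, 12540 and 15421 against 23296, 18298 and 23694 (−0.52 ± 0.16, adjusted p = 0.137), lower in every double knockout, and mt-Rnr2 of the large subunit differed by −0.08 ± 0.13 (adjusted p = 0.842).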

How the data were processed

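RNA-seq of sorted mouse splenic Tfh cells, 3 double knockout and 3 control libraries, was analysed from 1 table. Its values are a normalised signal: per the file headers, the authors scaled each library's counts by a size factor of its own. Per the submitters' processing notes the tools were STAR 2.5.1b, featureCounts 1.4.6, DESeq2 1.12.3 and the build GRCm38, with no role stated. The sources used here give no annotation release, strand setting or treatment of reads that match several places. The same deposited table holds the authors' comparison as log2 fold changes, a test statistic (score) and p-values, used only as an alternative.

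Each value was a whole multiple of the value of 1 read in its library (100% within 0.001 of a read), so whole reads could be recovered. Genes with a value of at least 10 in at least 3 libraries were kept, and limma-trend 3.58.1 (R 4.3.3) was fitted to log2(value + 1) with a single genotype term, two-sided, with Benjamini-Hochberg adjustment over all 13602 genes and a threshold of 0.05. The pseudocount understates the change of low genes. On recovered reads, edgeR 4.0.16 called 405 genes and DESeq2 1.42.0 called 1096. The fit was tested on simulated data. Python 3.11.15, numpy 2.4.6, pandas 2.3.3, scipy 1.17.1 and matplotlib 3.10.9 were used otherwise.

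The members and lists were chosen with earlier results of these data known. Genes named are all mitochondrial ones, members past the threshold, the 4 lowest and 4 highest differences among the other nuclear genes, the highest per kilobase of each complex, paralogue sets, up to 4 of each other list past the threshold or else the 1 with the smallest p, Cbl and Cblb. Other names are representative subunits, the defining markers, copies or class extremes chosen after their values were seen. Coordinates, exon lengths and shared 100-base windows come from GENCODE M21 on GRCm38, which matched all 107 genes. Promoters come from RefSeq. Intervals on reads cover counting error only, since no molecular identifiers were given.

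Alternatives were each library left out, the replicate number as a block, library weights, quantile or TMM scaling, a filter at 50 or none, a pseudocount of 0.5 or 10, edgeR, DESeq2 and the authors' comparison. Summing the chromosome 1 copies and leaving out mt-Nd3 were added after the data were seen. Replicates differed by more than sampling noise (chi-square over degrees of freedom between 10.0 and 84.3 for pairs of a group).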

Additional observations from a re-analysis of the deposited data

How the results depend on the processing

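The count of oxidative phosphorylation genes that passed, 1 (mt-Nd3), was the same with edgeR, DESeq2, the authors' deposited table, other pseudocounts, no filter, TMM and quantile scaling. It was 0 with a filter at 50, where mt-Nd3 was not tested, 0 with the chromosome 1 copies summed and 2 with library weights (mt-Nd3 and mt-Nd4). Leaving out single libraries gave 0 to 1, with 0 whenever a control was left out, since mt-Nd3 then had too few libraries to be tested. The nuclear median of −0.11 ranged from −0.18 to −0.000747 without single libraries. The mitochondrial median of −0.23 was −0.22 without mt-Nd3, −0.09 with the copies summed, −0.032 with quantile scaling, and between −0.34 and −0.11 without single libraries. The log2 ratio of nuclear to mitochondrial counts differed by 0.09, and by −0.04 to 0.30 without single libraries. Quantile scaling turned mt-Co1 to 0.094, mt-Nd5 to 0.080 and mt-Cytb to 0.14, and the cause was not tested. Summed copies turned mt-Nd3 to 0.31. Without single libraries mt-Nd5 ran from −0.17 to 0.090, Atp5s from −0.11 to 0.45 and Ndufs5 from −0.052 to 0.36, none of which passed.

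Same-numbered libraries of the groups correlated at 0.07, 0.05 and 0.09 in their deviations from the group means, each double knockout best with its own number. These are all below 0.1, so the numbers were not taken as pairs. With the replicate block 1 gene of the set passed, mt-Nd3, and 265 of all genes against 398. The count of the 94 genes at an unadjusted p below 0.05 by limma depended on this choice. It was 4 without the block, where 17.0% of all genes had such a p, 9 with it and 10 with library weights. The share of all genes with the block or the weights was not counted, so the rise cannot be set against it. The nuclear median with the block was −0.11 and the mitochondrial one −0.23. Over all genes the count of calls was 398 by limma, 1096 with DESeq2, 993 in the authors' deposited table, 1368 with library weights and 58 to 498 without single libraries. Too few reads for a test were counted for 8 complex IV isoforms and for 5 mitochondrial genes, and why the latter are low was not tested.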

Other observations

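Mitochondrial genes around the respiratory chain were also tested. Among 18 genes of the citric acid cycle and pyruvate dehydrogenase none passed by limma, edgeR or DESeq2, and the list's median was −0.07. Idh2, the NADP-dependent mitochondrial isocitrate dehydrogenase, was 1397, 862 and 1366 in the double knockouts and 797, 737 and 865 in the controls (0.56 ± 0.19, adjusted p = 0.182), and it rose with library weights. Double knockout 2 overlapped the controls, the other double knockouts did not. Of 11 genes of coenzyme Q synthesis none passed, with a median of 0.02, and Coq4 differed by 0.50 ± 0.28 (adjusted p = 0.410). Of 16 genes of cristae and inner membrane carriers none passed, with a median of −0.03, and Higd2a, an assembly factor of respiratory supercomplexes, was 1756, 1392 and 1587 against 2072, 1661 and 2437 (−0.37 ± 0.16, adjusted p = 0.285), with double knockout 1 above control 2.

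Among markers of other cells, Hba-a1, an alpha globin, fell (18.4, 9.01 and 4.47 against 130, 63.0 and 56.9, −2.95 ± 0.55, adjusted p = 0.0340), as did Cd8b1, a CD8 co-receptor chain (114, 188 and 109 against 420, 499 and 510, −1.83 ± 0.24, adjusted p = 0.0123), and Klrb1c, an NK receptor (−1.78 ± 0.36, adjusted p = 0.0428). Ms4a1, a B cell marker, was 6.15, 5.74 and 1.79 against 67.7, 17.8 and 29.4 and did not pass by limma (adjusted p = 0.0648). It fell by DESeq2, in the authors' deposited table and with library weights, which also called Cd79a, another B cell marker, lower. Their part in the values of the respiratory genes was not tested.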
